A study of Mus musculus with 12 samples.

Results

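The LPS response measured here is that of resident peritoneal macrophages kept in DMEM medium buffered with MOPS. It was read from 6 RNA-seq libraries of the 12 in the series: 3 of untreated cells in MOPS medium (replicates 1 to 3) and 3 of cells in the same medium that received LPS (replicates 7 to 9). The macrophages came from C57BL/6 mice, were cultured for 24 h and then stayed untreated or were given 10 ng/ml LPS for 2 h. The remaining 6 libraries are the same design in HEPES medium. MOPS is taken as the acidic medium (pH 6.8) and HEPES as the other (pH 7.4) only because the design text lists the pH values and the buffers in that order. Buffer and pH change together between the media, so nothing below separates them. Both groups of the main comparison are in MOPS, and the later comparison with HEPES changes buffer and pH at once. The libraries were made from bulk RNA, in which a change in the number of cells of a type and a change in RNA per cell cannot be told apart. Whether a replicate was its own animal or culture is not in the labels, so p-values reflect the spread among these libraries, which may be technical.

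Lipopolysaccharide, the outer membrane lipid of Gram-negative bacteria, is handed by CD14 to the receptor complex of TLR4 and MD-2. The adaptors MyD88 and TIRAP then start the IRAK, TRAF6 and TAK1 kinase cascade that frees NF-kappaB and activates the MAP kinases. From endosomes the adaptors TRAM and TRIF lead to IRF3 and to type I interferon. The genes that follow are known to come in waves: immediate-early factors and cytokines, feedback inhibitors of the same pathway, and then genes driven by the secreted cytokines and interferon.

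Each gene was tested for a difference between the 3 LPS libraries and the 3 untreated libraries. The deposited table lists 54532 genes, of which 14506 had enough counts to be tested. Levels are in CPM, a gene's count as a share of the library total after that total was scaled by its TMM composition factor. Changes are log2 fold changes of LPS over untreated ± standard error, with Benjamini-Hochberg adjusted p-values from edgeR's quasi-likelihood test. A gene is called when its adjusted p is under 0.05, and "rose" and "fell" are used of called genes only. A level written with ± is the mean ± SD of 3 libraries, and a value in parentheses after levels is the log2 change. Library totals were 20114613 to 24734853 counts without LPS and 21210474 to 24521749 with LPS. Libraries of one group correlated with an r of 0.991 to 0.994 over genes, and those of the 2 groups with 0.927 to 0.935. Of 10 defining macrophage markers all were tested and present in every library, and together they summed to 19193 to 22010 CPM of the unscaled library total.

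LPS moved most of the measured transcriptome within 2 h. Of the genes tested, 4945 rose (34.1%) and 5062 fell (34.9%), 69.0% in all. The counts of every gene list below are to be read beside these shares. Most changes were small: the median called gene moved 1.58-fold. By at least 2-fold 1564 genes rose (10.8%) and 1707 fell (11.8%), and by at least 4-fold 676 rose (4.66%) and 350 fell (2.41%). At 16-fold or more the response was one-sided, with 195 genes higher (1.34%) and 17 lower (0.117%). Of the 676 genes that rose 4-fold or more, 339 had a mean under 1 CPM without LPS and 199 had over 10 CPM. The CPM of the groups did not overlap for 10421 genes (71.8%), 9662 of them called. The authors' deposited table for this comparison, with its sign turned, calls 4664 genes higher and 4181 lower with LPS. Called in the same direction here were 4524 of the higher genes (97.0% of theirs and 91.5% of those called here) and 4136 of the lower (98.9% and 81.7%), and 0 were called in opposite directions.

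**Figure D1:**
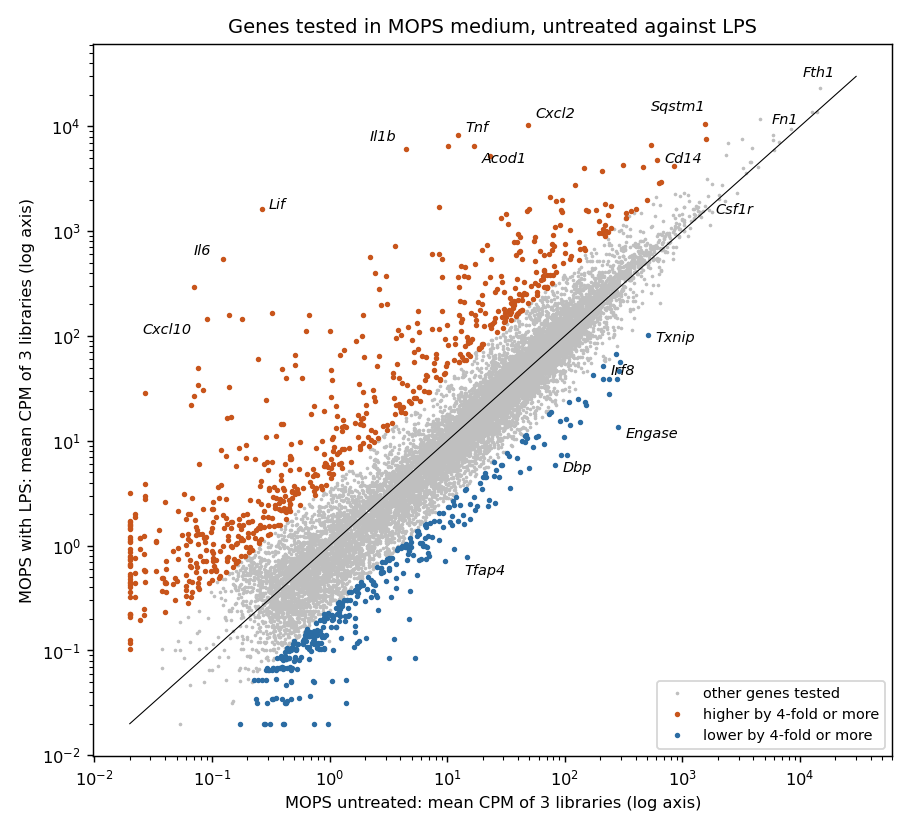
Mean level of each gene tested without LPS (x axis) and with LPS (y axis), in CPM on log axes, with means under 0.02 CPM drawn at 0.02; the line marks equal levels. The 676 genes higher by 4-fold or more (orange) start mostly at low levels and reach up to 10530 CPM (Sqstm1), and the 350 genes lower by 4-fold or more (blue) lie below the line.

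How the libraries are scaled sets the direction of the small changes. The genes that rose 4-fold or more held 2.47 to 2.56% of all counts in the untreated libraries and 17.6 to 18.7% in the LPS libraries, which leaves a smaller share of an LPS library to the remaining genes together. TMM scaling, which assumes that most genes do not change, placed the median gene at -0.035. Scaling by library totals alone placed it at -0.55, a median shift of -0.51. By totals 2084 genes were higher (14.4%) and 9506 lower (65.5%): 49.4% of calls were upward by TMM and 18.0% by totals. Of the genes that rose by TMM, 1493 were called lower by totals and 1368 were not called, while 0 of those that fell were called higher. Of the 1564 genes that rose 2-fold or more, 1452 were called higher by totals as well. Directions of genes that rose by small amounts therefore hold relative to the other genes. The value by totals, and for lists the number of genes called higher and lower by totals, is given beside the results that it changes.

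**Figure D2:**
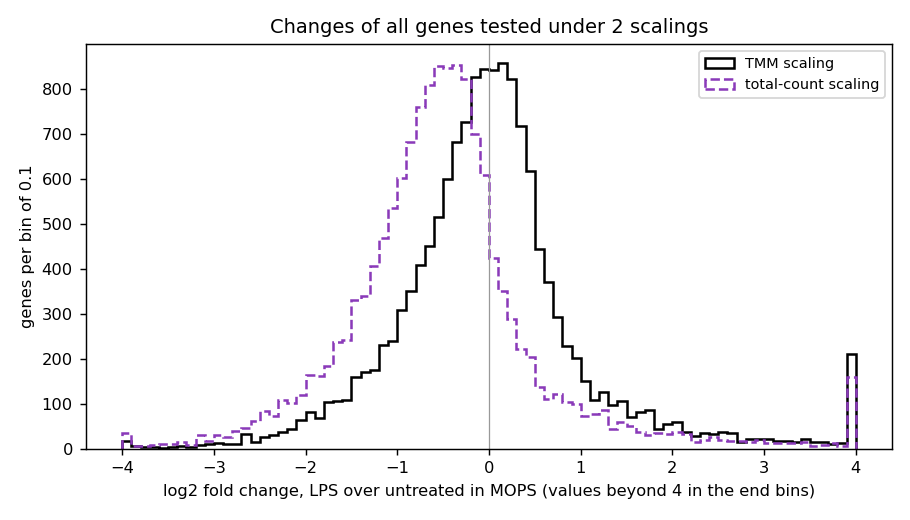
Number of genes (y axis) by log2 fold change with LPS in MOPS (x axis, bins of 0.1, values beyond 4 in the end bins) under TMM scaling and under total-count scaling. The medians lie at -0.035 and -0.55, and the right-hand tail of strongly raised genes is seen under both.

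Secreted cytokines and growth factors had the highest median change of the lists described here. Of 30 members tested, 28 rose and 1 fell, beside 34.1% and 34.9% of all genes, and Il15 did not pass. The median change was 5.71 (or 5.23 by totals), beside -0.035 over all genes. Ifnb1, the interferon-beta gene, and Lta had too few counts to be tested. Tnf, the tumour necrosis factor gene (ENSMUSG00000024401 on chromosome 17 from 35199381 to 35202007, mm10), stood at 10.3, 13.3 and 13.8 CPM without LPS and 8490.2, 8078 and 7985 CPM with LPS. The groups lay far apart, a log2 change of 9.36 ± 0.097 (adjusted p = 3.04e-19, edgeR). Il1b, which encodes the secreted pyrogen interleukin-1 beta (ENSMUSG00000027398 on chromosome 2 from 129364570 to 129371139), was at 3.12, 5.79 and 4.40 CPM without LPS and 6841, 5549.5 and 6053 CPM with LPS. It rose by 10.41 ± 0.23 on the log2 scale (adjusted p = 1.81e-10, edgeR), and its untreated libraries differed from each other more than its LPS libraries did in relative terms. Il1a, the interleukin-1 gene next to it on chromosome 2, was at 23.2, 23.0 and 22.5 CPM without LPS and 5612, 4899 and 5146 CPM with LPS, a change of 7.83 ± 0.070.

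Some of these genes went from almost no reads to high levels. Lif (ENSMUSG00000034394 on chromosome 11 from 4257557 to 4272514), a cytokine of the interleukin-6 family that signals through gp130, had the largest change of the genes named. It was at 0.474, 0.200 and 0.122 CPM without LPS and 1874, 1446 and 1522 CPM with LPS, and all LPS libraries exceeded 1000 CPM, a log2 change of 12.55 ± 0.20 (adjusted p = 2.81e-12, edgeR). Il6 (ENSMUSG00000025746 on chromosome 5 from 30013114 to 30019981) was at 0, 0.166 and 0.204 CPM without LPS and 575, 538 and 533 CPM with LPS, with no read in 1 untreated library, and rose by 12.04 ± 0.28. The ligands of the EGF receptor Areg and Ereg were at 0.0708 ± 0.0670 CPM untreated and 294 ± 45.5 CPM with LPS and at 0.141 ± 0.151 CPM untreated and 159.8 ± 32.2 CPM with LPS, respectively. They changed by 11.83 ± 0.28 and 10.01 ± 0.33, and these values rest on few untreated reads. Il23a, a subunit of interleukin-23, rose by 9.66 ± 0.30 to levels of 127 to 175 CPM. Csf2, which encodes GM-CSF, stood at 0, 0.0666 and 0.163 CPM without LPS and 55.0, 44.6 and 47.7 CPM with LPS (9.25 ± 0.21). Il12b, shared by interleukin-12 and interleukin-23, reached only 25.5 to 35.1 CPM (8.37 ± 0.30), and Il27 reached 38.3 to 42.1 CPM (6.07 ± 0.12). Il27 overlaps Apobr on the opposite strand.

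Anti-inflammatory and tissue cytokines moved as well. Il10, a deactivating cytokine of macrophages, stood at 0.158, 0.0333 and 0.244 CPM without LPS and 22.1, 12.96 and 15.8 CPM with LPS. The groups lay apart, with LPS replicate 7 the highest, and the change was 6.88 ± 0.39 (adjusted p = 7.02e-09, edgeR). Tnfsf9, the ligand of the costimulatory receptor CD137, was at 2.37, 2.06 and 2.16 CPM without LPS and 607, 553 and 537 CPM with LPS, 8.01 ± 0.075. Tgfb1 and Tgfb2, which encode transforming growth factors, rose by 1.63 ± 0.038 and 1.86 ± 0.044 from means of 313 and 61.1 CPM. The member that fell was Il16, a chemoattractant of CD4 cells, at 32.0 ± 0.819 CPM untreated and 7.66 ± 0.379 CPM with LPS (-2.06 ± 0.087).

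**Figure D3:**
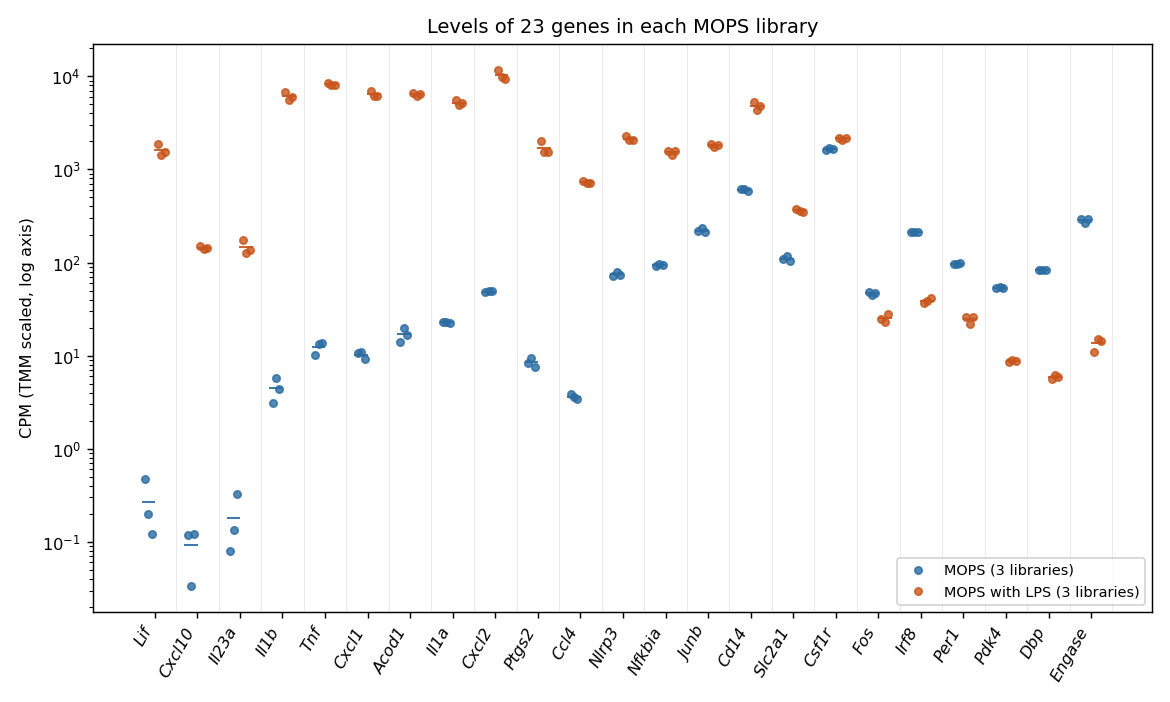
Level of 23 genes in each of the 6 MOPS libraries, in CPM on a log axis; points are libraries and short lines are group means (blue untreated, orange LPS). From Lif to Slc2a1 all LPS libraries lie above all untreated ones, from Fos to Engase they lie below, and Csf1r moved little.

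Chemokines, the secreted proteins that recruit leukocytes, formed the other strongly raised group of ligands. Of 22 members tested, 18 rose and 1 fell (median 2.86; by totals 2.37, with 16 higher and 3 lower); Ccl6, Ccl24 and Ppbp did not pass, and Ccl8, Ccl12, Cxcl9 and Cxcl11 had too few counts. The neutrophil attractants Cxcl2 and Cxcl1 reached high levels. Cxcl2 was at 48.1, 49.4 and 48.9 CPM without LPS and 11756, 9736 and 9384 CPM with LPS (7.72 ± 0.11), and Cxcl1 at 10.6, 10.9 and 9.17 CPM without LPS and 7004, 6207 and 6188 CPM with LPS (9.30 ± 0.075). The LPS library of replicate 7 was the highest of the 3 for both. Ccl3 and Ccl4, attractants of monocytes and T cells, were at 28.9 ± 2.36 CPM untreated and 1349 ± 43.6 CPM with LPS and at 3.60 ± 0.227 CPM untreated and 728 ± 26.0 CPM with LPS. Their changes were 5.54 ± 0.066 and 7.66 ± 0.069. Ccl5 went from 2.81 to 3.32 CPM up to 342 to 407 CPM (6.94 ± 0.10). Ccl2, the main monocyte attractant, was at 3.16, 2.46 and 2.04 CPM before and 49.3, 52.5 and 54.6 CPM after LPS, a change of 4.35 ± 0.12 to a level far under that of Cxcl2. Cxcl10, a T cell attractant that interferon and NF-kappaB both control, was at 0.119, 0.0333 and 0.122 CPM without LPS and 150.0, 139 and 144 CPM with LPS. It had the largest change in the list, 10.60 ± 0.23 (adjusted p = 1.13e-12, edgeR). Cxcl16, a scavenger receptor and chemokine in one protein, rose from an already expressed level (67.0 ± 2.34 CPM untreated and 419.8 ± 22.02 CPM with LPS; 2.65 ± 0.051), and Cxcl12 fell (-0.65 ± 0.14).

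Several of the genes that gained most lie next to each other. Along the genome, a run of at least 3 neighbouring protein-coding genes tested that each rose 4-fold or more was found 17 times, and one of genes that fell as much 2 times. Of 12140 protein-coding genes tested, 528 rose and 212 fell by that much. Whether the runs outnumber what these counts alone would give was not tested. On chromosome 5 Cxcl3, Cxcl1 and Cxcl2 stand together between 90786103 and 90905938 (mm10), with log2 changes of 6.14 to 9.30, and Epgn, Ereg and Areg follow between 91027464 and 91148432, with 4.25 to 11.83. A run on chromosome 2 from 129198764 to 129371139 holds Slc20a1, Ckap2l, Il1a and Il1b (2.52 to 10.41), and another from 24186476 to 24351494 holds Il1f9, Il1f6 and Il1rn (2.96 to 6.43). On chromosome 17 Spaca6, Has1, Fpr1 and Fpr2 rose on the log2 scale by 3.06 to 8.34, on chromosome 11 Ccl2, Ccl7 and Tmem132e by 4.35 to 8.31, and on chromosome 1 the interferon-inducible genes Ifi211, Ifi203, Ifi202b and Ifi205 with Olfr433 by 3.23 to 6.45. The acute-phase genes Orm1, Orm3 and Orm2 stand in a run of 5 on chromosome 4. The runs of lower genes were Engase, Cbx2 and Cbx8 on chromosome 11 and Sesn1, Armc2 and Foxo3 on chromosome 10. Some runs include members near the floor. The lowest mean with LPS was 0.125 CPM in the Olfr433 run, 0.447 CPM in the Il1rn run and 0.568 CPM in the Areg run. Near-identical neighbours such as Bcl2a1d, Bcl2a1a and Bcl2a1b can share reads, so their separate values are uncertain.

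The 250 bases before the start of 6 induced genes show the letters to which the pathway's known factors bind. They are printed 5′ to 3′ on the strand of the gene, from RefSeq's GRCm38.p6 annotation, with matches to the searched motifs in capitals. Cxcl1 (chr5:90890995-90891244, plus strand) and Cxcl2 (chr5:90903649-90903898, plus strand) are the adjacent chemokine genes, Il6 (chr5:30012864-30013113, plus strand) and Nfkbia (chr12:55492648-55492897, minus strand) are a cytokine and the inhibitor that switches NF-kappaB off, and Cxcl10 (chr5:92348890-92349139, minus strand) and Ifit1 (chr19:34640639-34640888, plus strand) are genes known to respond to interferon.

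Cxcl1: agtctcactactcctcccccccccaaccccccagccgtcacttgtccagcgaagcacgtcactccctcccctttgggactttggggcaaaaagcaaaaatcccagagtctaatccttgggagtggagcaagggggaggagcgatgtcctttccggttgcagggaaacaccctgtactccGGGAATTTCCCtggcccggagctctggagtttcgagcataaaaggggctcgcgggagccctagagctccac

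Cxcl2: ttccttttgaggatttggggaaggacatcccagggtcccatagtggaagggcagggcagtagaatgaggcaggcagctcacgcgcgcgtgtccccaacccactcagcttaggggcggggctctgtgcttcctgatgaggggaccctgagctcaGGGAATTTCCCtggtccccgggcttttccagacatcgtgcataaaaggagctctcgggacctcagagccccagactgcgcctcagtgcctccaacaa

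Il6: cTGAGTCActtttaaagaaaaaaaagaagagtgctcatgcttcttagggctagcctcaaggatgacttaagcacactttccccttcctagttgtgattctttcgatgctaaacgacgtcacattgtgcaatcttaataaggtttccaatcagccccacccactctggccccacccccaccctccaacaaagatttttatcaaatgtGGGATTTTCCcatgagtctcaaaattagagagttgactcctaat

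Nfkbia: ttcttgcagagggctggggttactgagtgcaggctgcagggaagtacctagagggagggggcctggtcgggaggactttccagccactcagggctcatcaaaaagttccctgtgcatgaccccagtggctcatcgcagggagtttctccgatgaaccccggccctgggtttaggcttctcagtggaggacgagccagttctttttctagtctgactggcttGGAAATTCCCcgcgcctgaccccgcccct

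Cxcl10: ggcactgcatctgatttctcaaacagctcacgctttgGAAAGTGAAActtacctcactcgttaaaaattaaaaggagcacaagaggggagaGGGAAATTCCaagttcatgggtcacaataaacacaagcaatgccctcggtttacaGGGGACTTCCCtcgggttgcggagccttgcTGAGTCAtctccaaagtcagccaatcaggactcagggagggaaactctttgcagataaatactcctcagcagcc

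Ifit1: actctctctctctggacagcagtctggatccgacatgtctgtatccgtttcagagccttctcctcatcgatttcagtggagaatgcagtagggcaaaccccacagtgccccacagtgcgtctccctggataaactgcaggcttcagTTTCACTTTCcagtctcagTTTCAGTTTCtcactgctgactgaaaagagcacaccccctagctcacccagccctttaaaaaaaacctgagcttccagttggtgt

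The motifs searched, on both strands, were the NF-kappaB consensus, TGANTCA (bound by AP-1), TGACGTCA (bound by CREB and ATF factors), the interferon-stimulated response element core (GAAA, 2 free bases, GAAA, bound by IRF and STAT complexes), the CArG box of SRF and CACGTG. In Cxcl1 and Cxcl2 the capitals are the same 11 letters, in which 2 overlapping NF-kappaB matches begin 71 and 70 bases before the start in Cxcl1 and 97 and 96 bases before it in Cxcl2. Il6 holds an NF-kappaB match 44 bases before its start and TGAGTCA 249 bases before it, and Nfkbia holds a match 29 bases before its start. Cxcl10 holds 3 NF-kappaB matches, 2 of them overlapping, with TGAGTCA at 74 bases and GAAAGTGAAA at 213 bases before the start. Ifit1 holds 2 matches to the interferon motif, on the opposite strand, at 104 and 85 bases, and none to the NF-kappaB consensus. Of the 250-base stretches before the start of 9599 tested protein-coding genes, 8.83% hold the NF-kappaB consensus, 4.30% TGANTCA, 2.76% TGACGTCA, 2.75% the interferon element, 1.07% the CArG box and 8.48% CACGTG. A match is a description of letters and not of binding, and Tnf, Il1b, Acod1 and Plek hold none of the 6 motifs in this window. The promoter table covers 74.2% of the protein-coding genes higher by 4-fold or more, under the 80% needed, so the check of motif shares between gene groups is void and none is given. Promoters were matched by symbol.

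The genes with the largest changes had fewer exons, at the median, than all genes tested. Protein-coding genes higher by 4-fold or more had a median of 6 exons, counted in the annotated transcript with most exons, and a median genomic span of 16.5 kb. Those lower by 4-fold or more had 6 exons and 15.4 kb, and all protein-coding genes tested had 9 exons and 23.6 kb. At most 3 exons were found in 22.9% of the higher and 23.6% of the lower genes, against 10.8% of all. The 150 genes higher by 16-fold or more had a median of 5 exons and 11.7 kb. These are descriptions without a test.

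On the receptor side of the pathway Tlr4 changed little and Cd14 rose. Tlr4 was at 33.7, 33.5 and 31.7 CPM without LPS and 28.1, 27.0 and 27.3 CPM with LPS, slightly lower in every LPS library, a log2 change of -0.26 ± 0.059 (adjusted p = 2.31e-04, edgeR). Cd14, the co-receptor, was at 617, 610.5 and 586 CPM without LPS and 5262, 4369.5 and 4816 CPM with LPS, a change of 2.99 ± 0.056. Among genes of LPS sensing and adaptors 16 of 22 members tested rose and 3 fell (median 0.67; by totals 0.15, with 12 higher and 7 lower). Myd88, the adaptor shared by most Toll-like receptors, rose by 1.68 ± 0.050; it overlaps Acaa1a on the opposite strand. Irak2, a kinase that sustains the signal, was at 90.1 ± 1.75 CPM untreated and 321 ± 2.56 CPM with LPS (1.83 ± 0.037). Irak3, a catalytically weak relative that damps it, was at 43.2 ± 1.26 CPM untreated and 245 ± 16.3 CPM with LPS (2.50 ± 0.052). Traf3, the adaptor of the interferon branch, rose by 2.07 ± 0.046. Irak4, the kinase that starts the cascade, had the largest fall in the list (-0.54 ± 0.053), and Ly96, Irak1 and Unc93b1 did not pass.

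Nearly all NF-kappaB genes rose, activators and brakes alike. Of 20 members tested, 19 rose and 1 fell, with a median of 2.34 (1.83 by totals; 19 higher and 1 lower). Nfkb1, a DNA-binding subunit, was at 144, 157 and 150.3 CPM without LPS and 1686, 1549 and 1515 CPM with LPS, a log2 change of 3.40 ± 0.045 (adjusted p = 1.20e-32, edgeR). Nfkbia, the inhibitor that recaptures NF-kappaB in the cytoplasm, was at 92.6, 96.7 and 94.4 CPM without LPS and 1583, 1445 and 1567 CPM with LPS (4.02 ± 0.052). Nfkbiz, a nuclear IkB protein needed for a set of secondary genes, was at 30.6, 31.9 and 32.999 CPM without LPS and 1503, 1431 and 1407 CPM with LPS. Its change, 5.51 ± 0.046, was the largest in the list. Tnfaip3, the ubiquitin-editing enzyme A20, and its partner Tnip1 were at 92.6 ± 4.36 CPM untreated and 1606 ± 73.0 CPM with LPS and at 39.1 ± 2.32 CPM untreated and 786 ± 52.0 CPM with LPS. They changed by 4.12 ± 0.050 and 4.33 ± 0.054. The member that fell was the deubiquitinase Cyld (-0.17 ± 0.047).

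Inhibitors of MAP kinase and cytokine signalling rose over a wide range. Of 19 members tested, 14 rose and 4 fell (median 2.41; by totals 1.90, with 12 higher and 5 lower). Cish, a STAT5-induced SOCS protein, had the largest change, at 1.38, 0.866 and 0.774 CPM without LPS and 114, 106 and 116 CPM with LPS (6.80 ± 0.092), and Socs2 rose by 2.54 ± 0.10. Dusp1, which removes phosphate from p38 and JNK, was at 30.4, 31.3 and 31.0 CPM without LPS and 174, 148 and 171 CPM with LPS, a log2 change of 2.41 ± 0.066 (adjusted p = 2.14e-18, edgeR). Dusp4 and Dusp16 rose by 3.25 ± 0.074 and 2.86 ± 0.060. Dusp3 fell the most (-0.92 ± 0.045), and Dusp10 did not pass.

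Factors that govern the decay of cytokine mRNA split in both directions. Of 16 members tested, 12 rose and 4 fell (median 0.59; by totals 0.079, with 8 higher and 5 lower). Zc3h12a, the RNase Regnase-1 that cleaves Il6 mRNA, was at 37.6, 39.0 and 37.8 CPM without LPS and 625, 560.2 and 587 CPM with LPS, a log2 change of 3.95 ± 0.053 (adjusted p = 1.63e-31, edgeR), and its relative Zc3h12c was at 30.2 ± 1.07 CPM untreated and 262 ± 14.9 CPM with LPS (3.12 ± 0.048). Zfp36, the AU-rich element binding protein tristetraprolin, was at 125, 117 and 118 CPM before and 393, 394 and 419 CPM after LPS (1.74 ± 0.045). Its relative Zfp36l1 moved the other way, at 54.5 ± 1.397 CPM untreated and 18.4 ± 0.724 CPM with LPS (-1.57 ± 0.058). The antiproliferative deadenylation cofactors Btg1 and Btg2 rose by 2.23 ± 0.039 and 1.82 ± 0.045.

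At 2 h Fos was not among the immediate-early transcription factors that rose. Of 27 members tested, 22 rose and 1 fell (median 1.30; by totals 0.79, with 19 higher and 8 lower), and Atf3, Nr4a2, Mafk and Klf10 did not pass. DESeq2 called Atf3 higher. Fos, an AP-1 subunit whose mRNA is short-lived, was at 48.2, 45.05 and 46.7 CPM without LPS and 24.7, 23.1 and 27.8 CPM with LPS. Every LPS library was below every untreated one, a log2 change of -0.89 ± 0.075 (adjusted p = 8.33e-12, edgeR). Junb, another AP-1 subunit, was at 216, 234 and 210.3 CPM without LPS and 1872, 1726 and 1837 CPM with LPS (3.04 ± 0.051). Maff, a small MAF protein, was at 12.97, 14.1 and 12.5 CPM without LPS and 495, 442 and 460.4 CPM with LPS. It rose the most of the list, by 5.14 ± 0.065. Egr1, a growth-factor response gene, was at 36.6 ± 2.05 CPM untreated and 183 ± 4.87 CPM with LPS (2.33 ± 0.057). Ier2 and the orphan nuclear receptor gene Nr4a3 rose by 2.94 ± 0.052 and 4.72 ± 0.080.

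Effector enzymes and secreted defence proteins rose almost as a whole. Of 32 members tested, 28 rose and 1 fell, with a median of 2.00 (1.49 by totals; 24 higher and 4 lower), and Arg1, Cp and Mmp12 did not pass. Acod1, the mitochondrial enzyme that makes itaconate from aconitate (ENSMUSG00000022126 on chromosome 14 from 103046977 to 103056573), was at 14.1, 19.98 and 16.9 CPM without LPS and 6601, 6208 and 6498 CPM with LPS, a log2 change of 8.56 ± 0.15 (adjusted p = 1.23e-11, edgeR). Ptgs2, the inducible cyclooxygenase of prostaglandin synthesis, was at 8.26, 9.46 and 7.62 CPM without LPS and 2023, 1529 and 1538 CPM with LPS. Its LPS library of replicate 7 stood above the other two, and the change was 7.64 ± 0.18. Nos2, the inducible nitric oxide synthase, had 2 reads in the 3 untreated libraries together and stayed low with LPS, at 2.70 to 4.52 CPM. The ratio of its levels was 144, with an exact 95% counting interval of 42.2 to 1282. Arg1, the arginase that competes with Nos2 for its substrate, was at 562, 501 and 465 CPM without LPS and 491, 435 and 432 CPM with LPS. These overlap, and the change of -0.17 ± 0.12 did not pass (adjusted p = 0.235, edgeR), though it was called lower by totals (-0.69). Gch1, which makes a cofactor of nitric oxide synthase, rose by 2.33 ± 0.054. The oxidase subunit genes Cybb and Ncf1 were at 2335 ± 114 CPM untreated and 5284 ± 131 CPM with LPS and at 323 ± 9.21 CPM untreated and 1293 ± 18.7 CPM with LPS (1.18 ± 0.038 and 2.00 ± 0.038). Plaur, the urokinase receptor gene, rose by 2.30 ± 0.053. The member that fell was Ptgs1, the constitutive cyclooxygenase (-0.55 ± 0.070).

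Interferon-stimulated genes split into a strongly raised part and a part that fell or did not pass. Of 34 members tested, 18 rose and 9 fell, the median being 0.85 (0.34 by totals; 16 higher and 13 lower). Ifit1, which binds viral RNA, was at 0.356, 0.499 and 0.326 CPM without LPS and 47.2, 48.1 and 48.5 CPM with LPS, a log2 change of 6.88 ± 0.16 (adjusted p = 4.51e-22, edgeR). Isg15, a ubiquitin-like modifier, was at 2.06, 1.66 and 2.04 CPM without LPS and 170.2, 148 and 157 CPM with LPS (6.37 ± 0.081). Gbp5, a guanylate-binding protein, was at 2.63 ± 0.215 CPM untreated and 280.1 ± 4.89 CPM with LPS (6.73 ± 0.093), and the DNA sensor family gene Ifi204 rose by 1.74 ± 0.051. Oasl1 had the largest change in the list (7.86 ± 0.20). Usp18, which removes ISG15, fell by the most (-1.54 ± 0.18). Among those that did not pass was Ifit3 (1.35 ± 0.65, adjusted p = 0.0663, edgeR), which stayed under 1 CPM on average.

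Regulators of interferon genes moved in both directions. Of 18 members tested, 9 rose and 5 fell, beside 34.1% and 34.9% of all genes. The median was 0.086 (-0.43 by totals, with 4 higher and 12 lower). Irf1 was at 75.5, 85.4 and 86.2 CPM without LPS and 286, 311 and 313 CPM with LPS, a rise of 1.88 ± 0.048. Irf8, which keeps myeloid identity genes active, was at 212, 214 and 214 CPM without LPS and 36.7, 39.1 and 41.5 CPM with LPS. All LPS libraries lay far below the untreated ones, a log2 change of -2.45 ± 0.048 (adjusted p = 2.25e-28, edgeR). Irf7, the amplifier of type I interferon, was at 9.92, 10.9 and 12.1 CPM without LPS and 9.61, 7.14 and 9.32 CPM with LPS. The groups were separate, yet the change of -0.34 ± 0.17 did not pass (adjusted p = 0.0841); it passed by totals, with the 6 MOPS libraries fitted alone (adjusted p = 0.0105, edgeR) and without the low-count filter (adjusted p = 0.00137, edgeR). Stat2 rose by 1.17 ± 0.061, and Stat5b fell, at 122 ± 3.14 CPM untreated and 46.5 ± 2.11 CPM with LPS (-1.39 ± 0.051).

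Costimulatory and adhesion ligands, the signals by which macrophages engage lymphocytes, rose with few exceptions. Of 20 members tested, 16 rose and 3 fell (median 2.15; by totals 1.63, with 12 higher and 3 lower), and the largest fall, of Tnfsf8, was at under 1 CPM (-1.20 ± 0.45). That call was lost without untreated replicate 1 or 2 or LPS replicate 8 (adjusted p = 0.0711, 0.0905 and 0.0976, edgeR). Cd40 was at 24.2, 26.7 and 28.6 CPM without LPS and 286, 271 and 292 CPM with LPS, a log2 change of 3.42 ± 0.053 (adjusted p = 2.56e-30, edgeR). Cd69, an early activation marker, went from under 1 CPM to 51.1 to 54.4 CPM (6.67 ± 0.10). Itgal, the integrin subunit of LFA-1, rose by 3.43 ± 0.061, and Cd44, the hyaluronan receptor, was at 365 ± 3.30 CPM untreated and 1574 ± 109 CPM with LPS (2.11 ± 0.043).

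Antigen presentation genes proper moved by far less. Of 19 members tested, 11 rose and 2 fell, none of them by 2-fold, with a median of 0.24. By totals the median was -0.28, with 1 higher and 14 lower. H2-K1, a class I heavy chain, was at 1750.2, 1843 and 1792 CPM before and 2911, 2636 and 2823 CPM after LPS (0.64 ± 0.040). B2m, the class I light chain, changed by 0.38 ± 0.040 (-0.13 by totals), H2-D1 by 0.31 ± 0.037 (-0.21 by totals) and the peptide-loading factor Tapbp by 0.51 ± 0.038 (-0.0021 by totals). The class II genes H2-Aa, H2-Eb1 and Cd74 did not pass, though DESeq2 and the fit of the 6 MOPS libraries alone called them higher. H2 genes have close copies, so reads may be split between them.

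Receptors for cytokines and for small ligands moved in both directions. Among cytokine and chemokine receptors 18 of 31 members tested rose and 10 fell (median 0.43; by totals -0.082, with 13 higher and 13 lower). Ccrl2, which presents the chemoattractant chemerin, was at 53.0, 54.1 and 56.0 CPM without LPS and 801, 833 and 809 CPM with LPS, a log2 change of 3.90 ± 0.042 (adjusted p = 7.32e-35, edgeR). Il17ra was at 76.0, 71.7 and 71.4 CPM before and 629, 616 and 587 CPM after LPS (3.06 ± 0.043). Tnfrsf1b, a TNF receptor, rose as well, at 628 ± 8.97 CPM untreated and 2854 ± 72.2 CPM with LPS (2.18 ± 0.037), and Ifnar1, a chain of the interferon receptor, changed by 1.18 ± 0.036. Ccr2, the receptor for Ccl2 on monocytes, fell by the most (-1.97 ± 0.21) from a level of 3.54 to 4.26 CPM.

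Among G protein-coupled receptors for metabolites, purines and chemoattractants 15 of 25 members tested rose and 5 fell (median 0.9998; by totals 0.49, with 15 higher and 9 lower). Adora2a, the adenosine receptor that restrains inflammation, was at 11.3, 13.2 and 13.2 CPM without LPS and 161, 158 and 153 CPM with LPS (3.64 ± 0.063). Hcar2, the receptor for beta-hydroxybutyrate and niacin, was at 8.90, 8.72 and 7.90 CPM without LPS and 129, 105 and 118 CPM with LPS (3.78 ± 0.068). Gpr84, a receptor for medium-chain fatty acids, rose the most in the list, by 7.32 ± 0.10. Ptafr, the receptor of platelet-activating factor, rose by 1.93 ± 0.039. Of the receptors linked to proton sensing, Gpr132 rose, at 8.03 ± 0.662 CPM untreated and 61.5 ± 5.22 CPM with LPS (2.93 ± 0.075), and Gpr65 fell, at 23.8, 23.4 and 21.1 CPM without LPS and 14.9, 15.04 and 18.4 CPM with LPS with a log2 change of -0.50 ± 0.080 (adjusted p = 1.64e-06, edgeR). Gpr183, the oxysterol receptor that guides cell position, fell by the most (-2.90 ± 0.13). Ch25h, which makes the precursor of its ligand, was at 0.0791, 0.0666 and 0.0815 CPM without LPS and 35.9, 29.9 and 35.8 CPM with LPS (8.71 ± 0.19).

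**Figure D4:**
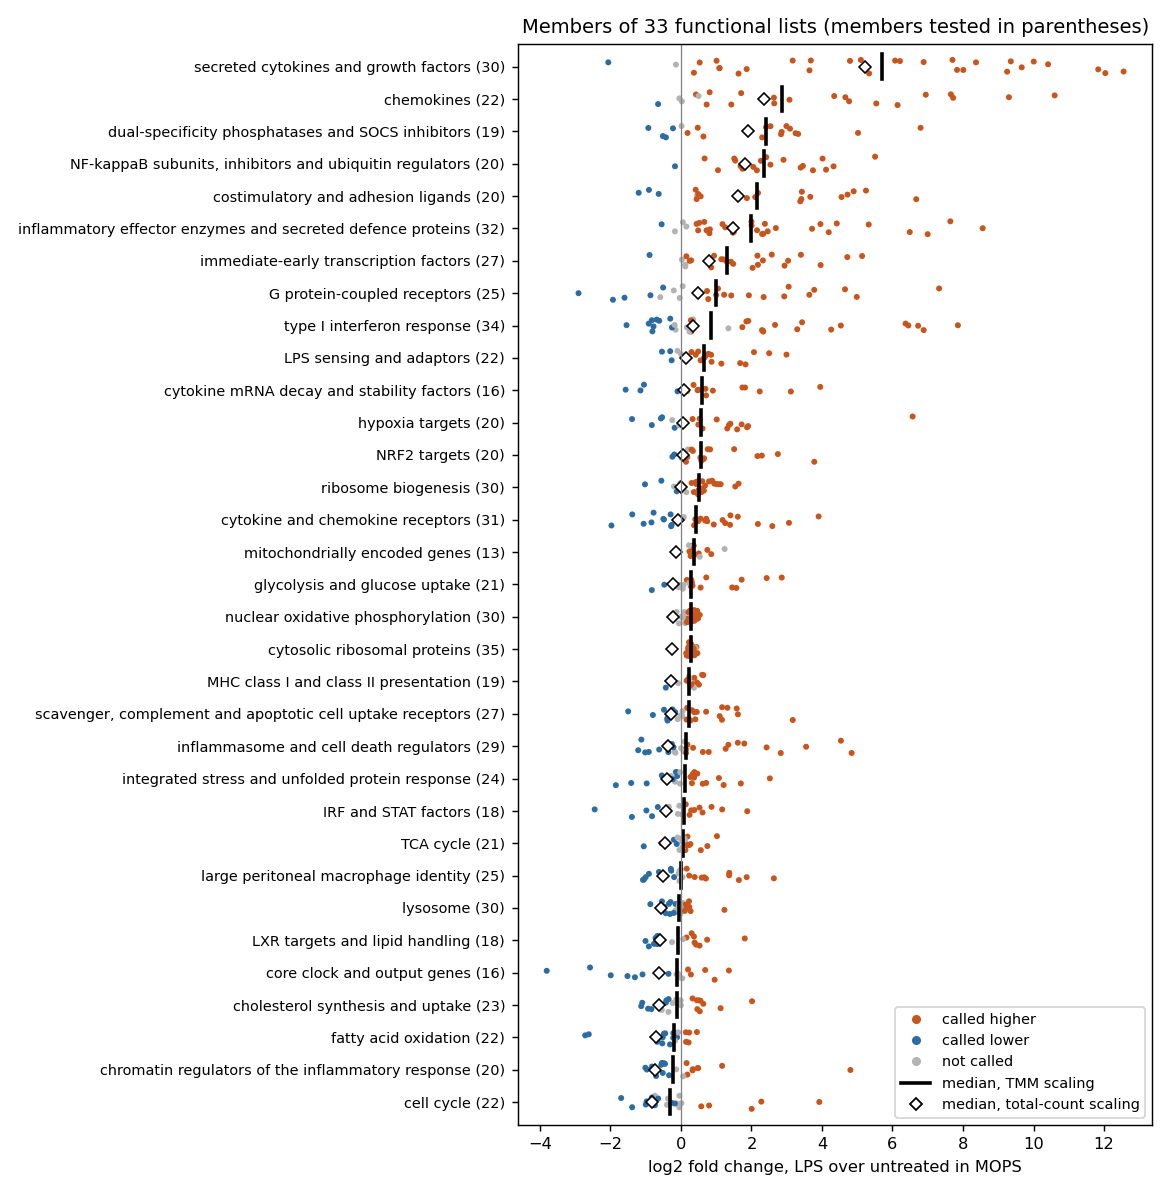
Log2 fold change with LPS in MOPS (x axis) of the members of 33 functional lists (y axis, number tested in parentheses); points are genes, orange and blue where called higher or lower and grey where not called, the bar is the list's median by TMM and the diamond its median by total counts. Cytokines have the highest median (5.71) and cell cycle genes the lowest (-0.32), and the diamonds lie about 0.51 to the left of the bars.

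The hexokinase gene Hk2 and the transporter genes Slc2a6 and Slc2a1 had the largest changes of the glycolysis genes. Of 21 members tested, 12 rose and 3 fell, with a median of 0.28 (-0.24 by totals; 6 higher and 13 lower). Hk2, the inducible hexokinase, was at 45.4, 47.7 and 42.0 CPM without LPS and 358, 306 and 318 CPM with LPS, a log2 change of 2.86 ± 0.060 (adjusted p = 8.19e-21, edgeR). Slc2a1, the glucose transporter GLUT1, was at 108, 119 and 103 CPM without LPS and 377, 362 and 349 CPM with LPS (1.72 ± 0.090), and Slc2a6, a lysosomal hexose transporter, was at 65.0 ± 4.29 CPM untreated and 351 ± 10.3 CPM with LPS (2.43 ± 0.048). Pfkp, a phosphofructokinase, rose by 1.57 ± 0.050, and Slc16a3, the lactate exporter MCT4, by 1.45 ± 0.059. Pfkfb3 fell (-0.83 ± 0.11), and Pkm, Gpi1 and Pgam1 did not pass. Gapdh, whose many near-identical copies make its count uncertain, was at 12.7, 13.9 and 14.2 CPM without LPS and 22.3, 23.3 and 21.7 CPM with LPS.

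The citric acid cycle moved at single enzymes. Of 21 members tested, 8 rose and 4 fell, with a median of 0.071 (-0.44 by totals; 2 higher and 18 lower). Idh1, the cytosolic isocitrate dehydrogenase, was at 546, 530.3 and 537 CPM without LPS and 247, 271 and 259 CPM with LPS, a log2 change of -1.05 ± 0.042 (adjusted p = 2.46e-20, edgeR). Cs, citrate synthase, and the dehydrogenase subunits Dld and Dlst changed by 0.56 ± 0.037, 1.02 ± 0.044 and 0.75 ± 0.042; by totals Cs was at 0.051 and lost its call. The dehydrogenase genes Sdha, Sdhb and Sdhd did not pass. Of the nuclear genes of oxidative phosphorylation 23 of 30 members tested rose and 0 fell, all within 2-fold (median 0.28). By totals the median was -0.24, with 0 higher and 19 lower: Atp5b, a catalytic subunit of ATP synthase, was at 0.44 ± 0.036 and at -0.070 by totals, and Cox6c at 0.49 ± 0.047 and -0.027. Cox5b (0.53 ± 0.044, 0.021 by totals and then not called) and Ndufa4 (0.46 ± 0.048, -0.052 by totals) were near them. Of 13 mitochondrially encoded genes 10 rose and 0 fell (median 0.36; by totals -0.15, with 0 higher and 6 lower). mt-Nd1 was at 0.36 ± 0.043 (-0.15 by totals), mt-Cytb at 0.33 ± 0.042 (-0.19), mt-Nd2 at 0.34 ± 0.048 (-0.17) and mt-Nd4 at 0.33 ± 0.043 (-0.18). As a share of all counts, mitochondrially encoded genes made up 0.958 to 0.974% without LPS and 0.817 to 0.842% with it.

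Most of the fatty acid oxidation genes tested fell. Of 22 members tested, 5 rose and 15 fell, with a median of -0.19 (-0.71 by totals; 0 higher and 21 lower). Pdk4, the kinase that keeps pyruvate out of the citric acid cycle when fat is burned, was at 53.2, 54.2 and 53.9 CPM without LPS and 8.64, 9.03 and 8.65 CPM with LPS. All LPS libraries were under 10 CPM, a log2 change of -2.61 ± 0.081 (adjusted p = 3.91e-23, edgeR). Echs1, Acadm and Acaa2, enzymes of beta-oxidation, changed by -0.67 ± 0.047, -0.52 ± 0.058 and -0.53 ± 0.056. The lowest value was that of Ppara (-2.72 ± 0.71), a nuclear receptor read at under 1 CPM.

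Sterol and lipid genes moved in both directions, as 34.1% of all genes rose and 34.9% fell. Of cholesterol synthesis and uptake genes 9 of 23 members tested rose and 7 fell (median -0.11; by totals -0.62, with 2 higher and 13 lower). Srebf2, a transcription factor that regulates cholesterol synthesis, rose by 0.53 ± 0.043, a call that was lost by totals (0.021). Of the enzymes Lss fell (-1.13 ± 0.13), Dhcr7 fell (23.3 ± 1.14 CPM untreated and 12.2 ± 0.776 CPM with LPS; -0.93 ± 0.080) and Sc5d changed by -1.10 ± 0.080. Among LXR targets and lipid genes 8 of 18 members tested rose and 8 fell (median -0.094; by totals -0.61, with 1 higher and 14 lower). Abca1, the cholesterol exporter, was at 592, 608 and 605 CPM without LPS and 2106, 2205 and 2021 CPM with LPS, a log2 change of 1.81 ± 0.048 (adjusted p = 6.07e-22, edgeR). Angptl4, which is secreted and blocks lipoprotein lipase, was at 156, 149 and 154 CPM without LPS and 93.7, 85.7 and 99.7 CPM with LPS (-0.72 ± 0.051). The fatty acid synthesis genes Acaca and Fasn fell (-0.67 ± 0.047 and -0.91 ± 0.066), as did Plin2, the coat protein of lipid droplets (1714 ± 32.3 CPM untreated and 1155 ± 74.6 CPM with LPS; -0.57 ± 0.042).

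NRF2 targets, genes of antioxidant defence, mostly rose by TMM and were divided by totals. Of 20 members tested, 16 rose and 2 fell (median 0.56; by totals 0.052, with 8 higher and 9 lower). Slc7a11, the cystine importer that feeds glutathione synthesis, was at 302, 318 and 309 CPM without LPS and 4474, 4323 and 3984 CPM with LPS, a log2 change of 3.78 ± 0.054 (adjusted p = 4.89e-26, edgeR). Hmox1, which breaks down heme, was at 2451, 2503 and 2321 CPM without LPS and 6684, 7048 and 6989.6 CPM with LPS (1.51 ± 0.042). Txnrd1 and Srxn1, which reduce thioredoxin and peroxiredoxin, rose by 2.29 ± 0.039 and 2.17 ± 0.036. Sqstm1, the autophagy adaptor p62, gained the most after Cxcl2, at 1531, 1609 and 1559 CPM without LPS and 10761, 10479.6 and 10349.7 CPM with LPS (2.75 ± 0.039). Fth1, the ferritin heavy chain, was the gene with the highest level per length in both groups and stood at 15174, 15096 and 14425 CPM before and 23209, 22881 and 23601 CPM after LPS (0.64 ± 0.036).

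Of hypoxia targets 13 of 20 members tested rose and 5 fell (median 0.57; by totals 0.059, with 9 higher and 8 lower). Adm, the vasodilator adrenomedullin, was at 0.435, 0.233 and 0.611 CPM without LPS and 38.2, 38.6 and 42.7 CPM with LPS (6.57 ± 0.15). Hif1a was at 326 ± 15.5 CPM untreated and 659.7 ± 18.8 CPM with LPS (1.02 ± 0.048), Ero1l rose by 1.402 ± 0.041 and Bhlhe40, also a clock gene, by 1.36 ± 0.043. Integrated stress and unfolded protein genes split as well. Of 24 members tested, 12 rose and 8 fell, beside 34.1% and 34.9% of all genes. The median was 0.13 (-0.39 by totals, with 6 higher and 16 lower). Hspa5, the main chaperone of the endoplasmic reticulum, was at 3232, 3247 and 3247 CPM without LPS and 7749, 7410.1 and 7367 CPM with LPS (1.21 ± 0.037). Ddit3, the stress factor CHOP, went the other way, at 109.6, 112 and 104 CPM without LPS and 31.6, 29.7 and 29.2 CPM with LPS. Each LPS library was below 32 CPM, a log2 change of -1.85 ± 0.054 (adjusted p = 7.06e-24, edgeR). Nupr1 and the phosphatase subunit Ppp1r15a rose by 2.52 ± 0.045 and 1.70 ± 0.049.

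The genes that fell most were a mixed set led by Engase, an enzyme that releases free sugar chains in the cytosol. Engase (ENSMUSG00000033857 on chromosome 11 from 118476829 to 118489209) was at 292, 267 and 296 CPM without LPS and 10.9, 15.3 and 14.5 CPM with LPS, a log2 change of -4.39 ± 0.094 (adjusted p = 3.53e-15, edgeR). Several of the leading falls were of transcription factors. Dbp, a clock-controlled activator, was at 84.1, 83.2 and 82.4 CPM without LPS and 5.66, 6.19 and 5.95 CPM with LPS, -3.81 ± 0.071. Tfap4 was at 16.8, 14.1 and 13.7 CPM without LPS and 0.720, 1.13 and 0.496 CPM with LPS (-4.21 ± 0.18), Mnt, a repressor that pairs with MAX, at 134 ± 5.91 CPM untreated and 15.03 ± 1.51 CPM with LPS (-3.16 ± 0.067), and Zfp395 at 34.2 ± 1.25 CPM untreated and 3.52 ± 0.0431 CPM with LPS (-3.28 ± 0.10). Receptors and signalling proteins followed. Gpr146 was at 107, 105 and 105 CPM without LPS and 6.12, 8.37 and 7.72 CPM with LPS (-3.83 ± 0.077) and the lysophosphatidic acid receptor gene Lpar6, which lies inside Rb1, at 92.5 ± 4.66 CPM untreated and 7.31 ± 1.45 CPM with LPS (-3.66 ± 0.089). Rin3, an activator of RAB5, changed by -3.19 ± 0.064, Tifab by -3.16 ± 0.077, Kctd12b by -3.30 ± 0.11, Kbtbd11 by -3.13 ± 0.14 and 9930111J21Rik2 by -3.22 ± 0.11. Dbp overlaps Sphk2 and Gpr146 overlaps another gene on the opposite strand.

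By lost CPM, the leading falls were of lysosomal, surface and metabolic genes. Lipa, the lysosomal acid lipase, was at 2880.1, 2888 and 2941 CPM without LPS and 2237, 2400.2 and 2376 CPM with LPS, a small relative change (-0.31 ± 0.042) of a highly expressed gene. Txnip, a glucose-responsive inhibitor of glucose uptake, was at 515, 492 and 524 CPM without LPS and 101, 105 and 103 CPM with LPS, a log2 change of -2.31 ± 0.046 (adjusted p = 4.28e-28, edgeR). Vsir, the checkpoint ligand VISTA, was at 657, 641 and 653 CPM without LPS and 191, 209 and 222 CPM with LPS (-1.65 ± 0.046). Lrp1, an endocytic receptor, Cd93 and the lysosomal enzyme Hgsnat changed by -0.24 ± 0.044, -0.9999 ± 0.038 and -0.60 ± 0.038, and Rsrp1 by -1.70 ± 0.050. By gain, the other leaders were Tnfaip2, at 534, 557 and 543 CPM without LPS and 6845, 6475 and 6713 CPM with LPS (3.62 ± 0.041), Plek, the protein kinase C substrate pleckstrin, at 1579 ± 23.9 CPM untreated and 7593 ± 254 CPM with LPS (2.27 ± 0.037), and Fn1, fibronectin, at 4596 ± 94.1 CPM untreated and 11849 ± 904 CPM with LPS (1.37 ± 0.045). Trem1, a receptor that amplifies inflammatory signals, was at 0.316, 0.200 and 0.448 CPM without LPS and 195, 142 and 162 CPM with LPS (9.03 ± 0.21).

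Compared per length in the deposited FPKM, cytokine mRNAs reached the level of the most abundant macrophage transcripts. Tnf was at a mean of 7.54 FPKM without LPS, rank 4841 of all genes, and at 4945 ± 182 FPKM (SD, n = 3) with LPS, rank 5. Cxcl2 went from rank 1740 to rank 6, at 4930 ± 633 FPKM. Fth1, Lyz2, Ftl1 and Psap stood above them, at means of 26564, 10406, 5420 and 4951 FPKM with LPS. Psap, Tnf and Cxcl2 differed by less than the spread of Cxcl2. Cxcl1, Il1b, Il1a and Acod1 were also among the 20 highest, at ranks 9, 10, 14 and 16.

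Clock genes moved at several output and feedback genes. Of 16 members tested, 5 rose and 7 fell, beside 34.1% and 34.9% of all genes. The median was -0.10 (-0.61 by totals, with 3 higher and 13 lower), and Dbp is given above. Per1 was at 95.4, 96.5 and 100.1 CPM without LPS and 25.8, 22.04 and 25.8 CPM with LPS (-1.99 ± 0.059) and Nr1d1, the repressor REV-ERB alpha, at 55.3 ± 0.513 CPM untreated and 19.3 ± 0.812 CPM with LPS (-1.52 ± 0.064). Nr1d1 overlaps Thra on the opposite strand. Arntl, Cry1, Rora and Bhlhe41 did not pass.

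Chromatin regulators were led by 1 large rise. Of 20 members tested, 8 rose and 10 fell, beside 34.1% and 34.9% of all genes. The median was -0.24 (-0.75 by totals, with 2 higher and 16 lower). Kdm6b, the demethylase JMJD3 that removes a repressive histone mark, was at 18.5, 16.7 and 16.5 CPM without LPS and 497, 493 and 454 CPM with LPS, a log2 change of 4.81 ± 0.062 (adjusted p = 2.86e-28, edgeR). Brd2, a reader of acetylated histones, rose by 1.17 ± 0.036. Hdac5, a histone deacetylase, and Jmjd1c fell (-0.97 ± 0.047 and -1.01 ± 0.041). Zinc finger genes named Zfp mostly fell: of 304 tested, 46 rose and 184 fell, with a median of -0.51 (-1.02 by totals).

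Noncoding transcripts moved in both directions. Of 384 lincRNA genes tested 68 rose and 153 fell (median -0.55), and of 402 antisense genes 94 rose and 126 fell. Mir155hg, the host transcript of miR-155, a microRNA induced in activated macrophages, was at 0.198, 0.333 and 0.204 CPM without LPS and 63.7, 61.4 and 56.9 CPM with LPS. The LPS libraries lay within 56.9 to 63.7 CPM, a log2 change of 7.89 ± 0.12 (adjusted p = 2.52e-31, edgeR). The mature microRNAs were not measured by these libraries. They are shown because their host is the raised noncoding gene whose product is a known regulator of this response, with the seed (bases 2 to 8) in capitals, from RefSeq's GRCm38.p6 annotation at chr16:84714143-84714165 and chr16:84714182-84714202 on the plus strand.

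mmu-miR-155-5p: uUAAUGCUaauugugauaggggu

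mmu-miR-155-3p: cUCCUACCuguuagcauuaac

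Most other noncoding leaders overlap coding genes, and unless counting used strand their reads cannot be told apart. Il1bos overlaps Il1b: it had 2 reads without LPS in all and 26.2 to 33.4 CPM with it, a ratio of 1069 with an exact counting interval of 316 to 9434. Gm14023 overlaps Il1a (7.45 ± 0.10) and Gm26584 overlaps Slc7a2 (5.98 ± 0.30). Gm11748 overlaps Engase (-5.89 ± 0.37) and Gm16587 overlaps Selp (-3.63 ± 0.17). Named coding genes that overlap another gene, all but Tapbp and Clec9a on the opposite strand, also include Pfkp, Prg4, Shisa3, Npc1, Jmjd1c, Cox6c, Tsr1, Irak3, Irf7, Gpr183, Ddit3 and Gapdh. Gm39822 (13.8 ± 1.42 CPM untreated and 1.61 ± 0.246 CPM with LPS; -3.10 ± 0.15) and A130014A01Rik (6.91 ± 0.758 CPM untreated and 0.854 ± 0.198 CPM with LPS; -3.01 ± 0.21) fell without such a partner.

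Large peritoneal macrophages, the main resident type of this cavity, depend on the factor GATA6. Of its identity genes 11 of 25 members tested rose and 8 fell, beside 34.1% and 34.9% of all genes. The median was 0.0024 (-0.51 by totals, with 5 higher and 17 lower), beside -0.035 over all genes. Gata6 was at 36.3, 36.4 and 37.4 CPM without LPS and 53.2, 42.9 and 48.2 CPM with LPS. It rose relative to the other genes, a log2 change of 0.39 ± 0.057 (adjusted p = 5.00e-07, edgeR), and was at -0.12 by totals. F10, a clotting factor, rose by 1.64 ± 0.043, Tgfb2 as above, Prg4, the lubricant proteoglycan, by 1.37 ± 0.041 and Fn1 by 1.37 ± 0.045. Cxcl13, a B cell attractant made by these cells, had the largest rise (2.64 ± 0.21), and Naip1 the largest fall (-1.08 ± 0.087). Of general macrophage markers 7 of 10 members tested rose and 3 fell (median 0.18; by totals -0.33, with 2 higher and 8 lower). Csf1r, the receptor for the macrophage growth factor, was at 1625, 1681 and 1677 CPM before and 2195, 2091 and 2167 CPM after LPS (0.37 ± 0.038, or -0.14 by totals), and Spi1, the factor PU.1, rose by 0.90 ± 0.039. Mertk, a receptor for dying cells, fell (-0.80 ± 0.046), and Actb, often used as a reference gene, was at 0.34 ± 0.036 and at -0.17 by totals.

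Uptake receptors changed unevenly. Of 27 members tested, 16 rose and 7 fell (median 0.23; by totals -0.29, with 8 higher and 18 lower). Clec4e, the receptor Mincle for mycobacterial glycolipid, was at 424, 478 and 475 CPM without LPS and 4319, 4038 and 4052 CPM with LPS (3.17 ± 0.054), and its neighbour Clec4d was at 1027 ± 38.4 CPM untreated and 2307 ± 107 CPM with LPS (1.17 ± 0.042). Axl, a receptor for dying cells like Mertk, rose by 1.16 ± 0.041, and the integrin gene Itgav by 1.62 ± 0.043. Fcgr1, a high-affinity antibody receptor, fell the most (-1.50 ± 0.14). Lysosome genes had a median near that of all genes: of 30 members tested, 8 rose and 9 fell (median -0.047; by totals -0.56, with 1 higher and 29 lower). Ctsc, a protease that activates others, rose by 1.23 ± 0.042, while Npc1 and Smpd1 were at -0.43 ± 0.036 and -0.87 ± 0.085.

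Markers of other cells were few, and B cell markers moved with the treatment. The 10 B cell markers summed to 247 to 259 CPM of the unscaled library total without LPS and 103 to 112 with it. Of 9 members tested, 0 rose and 8 fell (median -0.74; by totals -1.26, with 0 higher and 9 lower), with Ighm at 113, 115 and 114 CPM without LPS and 71.9, 68.4 and 63.5 CPM with LPS (-0.74 ± 0.16), Ms4a1 at -0.81 ± 0.14, Cd79b at -0.88 ± 0.15 and Bank1 at -0.59 ± 0.14. Their part in the genes that fell was not tested. T and NK cell markers summed to 0.707 to 1.93 CPM over both groups, with Ncr1 and Nkg7 at 0 in both. Granulocyte and mast cell markers summed to 26.8 to 38.1 CPM. The granulocyte genes S100a9, Ly6g, Mpo and Retnlg were at 0, and S100a8 was the member that rose (1.95 ± 0.16). The mast cell genes Tpsb2, Cma1, Cpa3, Kit and Mcpt4 had reads in both groups and did not pass. Tpsb2 had 757 reads over the untreated libraries and 509 over the LPS libraries, and Cma1 had 482 and 348. Dendritic cell, monocyte and small peritoneal macrophage markers summed to 204 to 242 CPM. Of 9 members tested, 5 rose and 3 fell (median 0.38; by totals -0.13, with 3 higher and 4 lower): Zbtb46 (1.49 ± 0.10) and Xcr1 (4.24 ± 0.24) rose, and Ccr2 and Clec9a (-1.52 ± 0.18) fell. Mesothelial, stromal and endothelial markers summed to 10.4 to 16.9 CPM (median 0.29, or -0.22 by totals), with Cdh5 (2.11 ± 0.68) and Pdgfra (1.47 ± 0.63) called at under 1 CPM. The call of Pdgfra was lost by totals (0.97) and without untreated replicate 1 (adjusted p = 0.0864), untreated replicate 2 (adjusted p = 0.147) or LPS replicate 9 (adjusted p = 0.394).

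Inflammasome and cell death genes moved in both directions, with Nlrp3 at the largest rise and Bcl2l1 at the largest fall. Of 29 members tested, 16 rose and 8 fell, beside 34.1% and 34.9% of all genes. The median was 0.14 (-0.37 by totals, with 10 higher and 18 lower). Nlrp3, the inflammasome sensor that LPS primes, was at 71.1, 78.4 and 74.0 CPM without LPS and 2263, 2082 and 2066 CPM with LPS, a log2 change of 4.84 ± 0.048 (adjusted p = 8.78e-36, edgeR). The survival genes Cflar and Bcl2a1d were at 246 ± 0.895 CPM untreated and 1749 ± 61.1 CPM with LPS (2.83 ± 0.037) and at 12.6 ± 0.894 CPM untreated and 294 ± 18.0 CPM with LPS (4.54 ± 0.058). Bcl2l11, which encodes the death activator BIM, rose too, at 66.3, 60.4 and 62.7 CPM before and 349, 344 and 327 CPM after LPS (2.43 ± 0.046), and Bcl2l1, a survival gene, fell (-1.21 ± 0.070). The sensor genes Nlrp1b and Aim2 did not pass.

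Cell cycle genes mostly fell or did not pass. Of 22 members tested, 5 rose and 10 fell (median -0.32; by totals -0.83, with 3 higher and 17 lower). Mki67, a marker of cycling cells, nevertheless was at 18.3, 22.6 and 21.9 CPM without LPS and 321, 329 and 307 CPM with LPS, a log2 change of 3.92 ± 0.068 (adjusted p = 1.69e-21, edgeR). Top2a, another such marker, was at 5.88 ± 0.664 CPM untreated and 5.73 ± 1.23 CPM with LPS and did not pass (-0.044 ± 0.14), though it was called lower by totals (-0.56). Cdkn1a, the cyclin kinase inhibitor p21, rose (196 ± 1.98 CPM untreated and 952 ± 34.2 CPM with LPS; 2.28 ± 0.041), and Cdkn1b and Cdkn2c fell (-0.997 ± 0.059 and -1.70 ± 0.10).

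Ribosome genes rose relative to the other genes and by small amounts. Of 35 cytosolic ribosomal protein genes 34 rose and 0 fell (median 0.27). By totals the median was -0.24, with 0 higher and 31 lower: Rps25 was at 0.47 ± 0.039 and at -0.046 by totals, Rpl19 at 0.44 ± 0.039 and -0.073, Rpl23 at 0.38 ± 0.042 and -0.13, and Rps24 at 0.37 ± 0.037 and -0.15. These genes have many processed copies, so their counts are uncertain. Of ribosome biogenesis genes 22 of 30 members tested rose and 3 fell (median 0.52; by totals 0.0083, with 10 higher and 10 lower). Rrs1 was at 37.4 ± 1.22 CPM untreated and 116 ± 4.32 CPM with LPS (1.64 ± 0.052), Nop58 changed by 1.54 ± 0.050, Ddx21, an RNA helicase, by 0.89 ± 0.041 and Tsr1 by 1.06 ± 0.056.

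The same comparison in HEPES medium shows where the response in MOPS differs. In HEPES 5168 genes rose (35.6%) and 5982 fell (41.2%). Of the genes that rose in MOPS 85.6% rose in HEPES, and of those that rose in HEPES 81.9% rose in MOPS. For falls the shares were 86.4% and 73.2%. The difference of the changes, tested as an interaction, was called for 5719 genes (39.4%), 3173 more positive in MOPS (21.9%) and 2546 more negative (17.6%). The 676 genes that rose 4-fold or more in MOPS had a median change of 3.08 there and 3.36 in HEPES, with the difference called more positive in MOPS for 85 and more negative for 178. The 350 genes that fell 4-fold or more had medians of -2.40 and -2.96, with 79 more positive and 6 more negative. These gene sets were chosen on the MOPS values, and most of their members had no called difference.

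**Figure D5:**
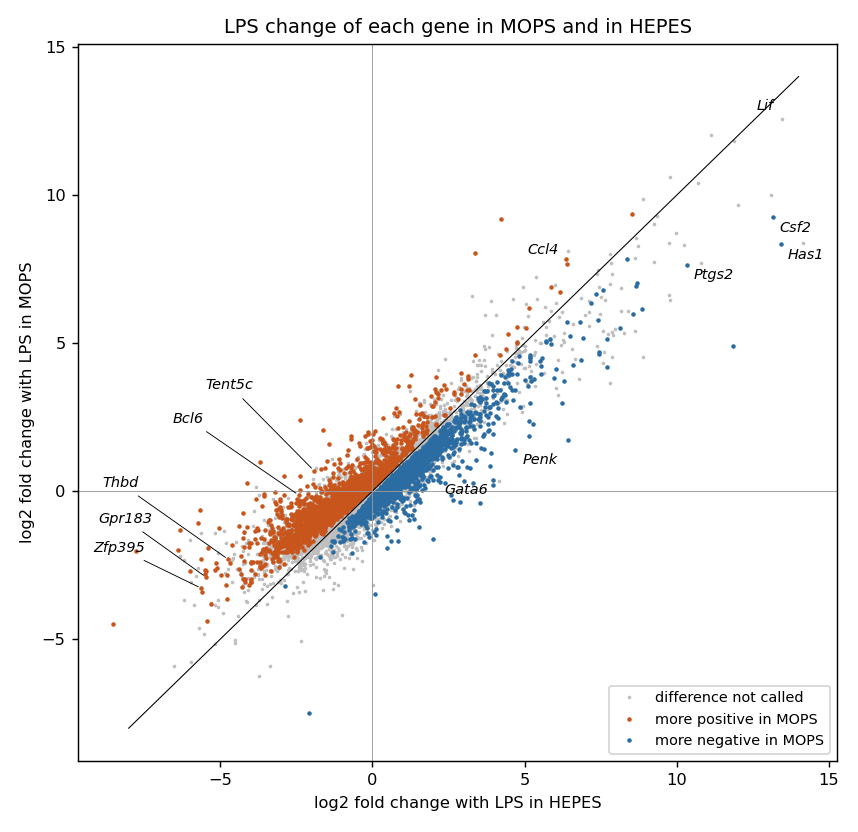
Log2 fold change with LPS in HEPES (x axis) and in MOPS (y axis) of each gene tested; the line marks equal changes, and colours mark a called difference (orange more positive in MOPS, blue more negative in MOPS). Csf2, Has1 and Ptgs2 lie below the line on the right, and Gpr183, Zfp395 and Thbd lie above it on the left.

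Among the genes that LPS raised less in MOPS than in HEPES, 5 of those named by the size of the difference are given. Ptgs2, named through the fixed set of genes, is given as well. Csf2 was one of the 5, with changes of 9.25 ± 0.21 in MOPS and 13.15 ± 0.17 in HEPES. Both standard errors are too small for the few untreated reads behind them, and that of the difference was 1.23. Ptgs2 changed by 10.33 ± 0.21 in HEPES, a difference of -2.69 ± 0.32 (adjusted p = 1.57e-04, edgeR). In HEPES Ptgs2 went from a lower untreated mean of 2.43 CPM to 3129 CPM with LPS, against 8.45 and 1697 CPM in MOPS. Penk, the enkephalin precursor gene, was at 2.07 ± 0.196 CPM untreated and 5.51 ± 1.52 CPM with LPS (1.41 ± 0.18) and differed by -3.28 ± 0.29 (adjusted p = 1.29e-10, edgeR). In HEPES Penk went from a lower untreated mean of 0.551 CPM to 14.3 CPM with LPS. Has1, a hyaluronan synthase, reached 18.9 to 24.1 CPM (8.34 ± 0.24), Shisa3 2.15 to 3.39 CPM (4.64 ± 0.38) and Sele, the endothelial adhesion molecule E-selectin, 0.236 to 0.771 CPM from 1 untreated read. The ratio of Sele was 48.5, with a counting interval of 7.03 to 1718. The differences between media of Csf2, Has1, Shisa3 and Sele rest on few untreated reads, and each lost its call without 1 of the untreated MOPS libraries, Csf2 for example without replicate 3 (adjusted p = 0.201, edgeR).

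Among the 6 genes named for a more positive change in MOPS, some fell in both media. Bcl6, a repressor of inflammatory genes, was at 51.1, 51.9 and 52.7 CPM without LPS and 48.3, 52.5 and 40.7 CPM with LPS and did not pass in MOPS (-0.13 ± 0.065; called lower by totals, -0.65), while in HEPES it fell by 2.41 on the log2 scale. Tent5c was at 34.3 ± 1.58 CPM untreated and 55.3 ± 8.12 CPM with LPS (0.69 ± 0.15; 0.18 by totals and then not called), against -1.91 ± 0.17 in HEPES. Thbd, thrombomodulin, fell in MOPS (-2.30 ± 0.15) by less than in HEPES (-4.72 ± 0.17), and so did Gpr183, Scml4 (-1.74 ± 0.14 and -4.06 ± 0.12) and Zfp395.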

How the data were processed

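Bulk mRNA of 12 libraries was analysed, 6 of them in MOPS medium. Reads were aligned to mm10 with HISAT2 2.0.5 and counted with featureCounts 1.5.0-p3, per the submitters' processing notes; the sources used here give neither strand setting nor gene annotation. The authors deposited raw counts per gene, FPKM values per library (used for ranks only) and a table of their own comparisons with log2 fold changes and p-values.

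The counts of all 12 libraries were fitted in R 4.3.3 with edgeR 4.0.16's robust quasi-likelihood model (4 groups, TMM scaling, filterByExpr), and p-values were adjusted by Benjamini-Hochberg over 14506 genes; 40026 were filtered out. On simulated counts of 13946 genes, with 50 genes changed at each fold size, the fit recovered 96% at 1.5-fold and 100% at 2-fold. It made 13 false calls. Recovery when most genes change, as with LPS here, was not tested, and these shares are not split by expression level. Standard errors are the log2 fold change divided by the root of the F statistic. They can be too small for genes with few reads in a group, such as Il6, Cxcl10, Areg, Csf2 and Has1 without LPS. Summaries and figures were made in Python 3.11.15. Exact counting intervals (95%) cover counting error only.

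Genes were named by a rule: the 12 largest changes each way among coding genes whose groups do not overlap, with at least 10 CPM, the 10 largest gains and losses of CPM, 4 members per list, 4 noncoding genes and 6 differences between media each way, and a fixed set. Some genes picked this way are left out here. The extremes of lists, members that did not pass and neighbouring genes were named after their values were seen. The members and lists were chosen with earlier results of these data known. Alternatives were RLE and total-count scaling, DESeq2 1.42.0, other filters, glmTreat, the MOPS libraries alone and leaving out each MOPS library. Gene positions are those deposited with the counts. Exon numbers come from GENCODE vM21, and promoters and microRNAs from RefSeq GRCm38.p6.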

Additional observations from a re-analysis of the deposited data

Results flagged for a closer look

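The LPS change in MOPS differed from that in HEPES, by edgeR's test of the difference, for 18 genes: the 11 named by the size of this difference and the members of the fixed set that differed by 1 or more on the log2 scale. Values are log2 changes ± SE, MOPS first, and a negative difference means less increase or more decrease in MOPS. Means are TMM-scaled CPM over 3 libraries a group.

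Of the cytokine, chemokine and enzyme genes, Csf2 differed by -3.90 ± 1.23 (adjusted p = 0.0176), going from 0.0765 to 49.1 CPM in MOPS and from 0.0345 to 368 CPM in HEPES. Ptgs2 differed by -2.69 ± 0.32 (adjusted p = 1.57e-04), 7.64 ± 0.18 in MOPS and 10.33 ± 0.21 in HEPES. It went from 8.45 to 1697 CPM in MOPS and from 2.43 to 3129 CPM in HEPES. Ccl5 differed by -1.72 ± 0.24 (adjusted p = 4.01e-05), from 3.04 to 375 CPM in MOPS and from 0.910 to 373 CPM in HEPES. Ccl4 went the other way, 1.25 ± 0.10 (adjusted p = 6.61e-11), from 3.60 to 728 CPM in MOPS and from 11.1 to 938 CPM in HEPES. Ifit1 differed by 1.002 ± 0.35 (adjusted p = 0.0272), from 0.394 to 47.9 CPM in MOPS and from 0.831 to 48.7 CPM in HEPES.

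Of the matrix, adhesion and tissue genes, Has1 differed by -5.07 ± 1.55 (adjusted p = 0.0121) and Sele by -6.95 ± 2.60 (adjusted p = 0.0343), both with untreated HEPES libraries at 0, so the sizes depend on the fit's prior. Penk differed by -3.28 ± 0.29 (adjusted p = 1.29e-10) and Shisa3 by -2.82 ± 0.89 (adjusted p = 0.0115). Gata6 differed by -1.75 ± 0.079 (adjusted p = 8.68e-17), from 36.7 to 48.1 CPM in MOPS and from 30.2 to 133 CPM in HEPES. Angptl4 differed by -1.15 ± 0.19 (adjusted p = 8.98e-06), from 153 to 93.0 CPM in MOPS and from 1.66 to 2.25 CPM in HEPES.

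Of the genes with a more positive change in MOPS, Bcl6 differed by 2.28 ± 0.11 (adjusted p = 1.22e-15), Gpr183 by 2.55 ± 0.27 (adjusted p = 6.94e-09), Gpr65 by 2.16 ± 0.12 (adjusted p = 9.11e-15), Scml4 by 2.32 ± 0.21 (adjusted p = 2.09e-10), Tent5c by 2.61 ± 0.23 (adjusted p = 2.03e-05), Thbd by 2.42 ± 0.27 (adjusted p = 6.93e-06) and Zfp395 by 2.33 ± 0.22 (adjusted p = 6.01e-10). Gpr65, a receptor linked to proton sensing, went from 22.8 to 16.1 CPM in MOPS and from 43.0 to 6.76 CPM in HEPES. Scml4 went from 6.24 to 1.87 CPM in MOPS and from 29.99 to 1.798 CPM in HEPES.

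The difference of Csf2 was no longer called without untreated MOPS replicate 2 (adjusted p = 0.0532) or 3 (adjusted p = 0.201). That of Has1 was lost without replicate 1 (adjusted p = 0.0818) or 3 (adjusted p = 0.0514), that of Ifit1 without replicate 1 (adjusted p = 0.0866) or 3 (adjusted p = 0.0969), that of Shisa3 without replicate 3 (adjusted p = 0.0998) and that of Sele without replicate 2 (adjusted p = 0.9999). Buffer and pH cannot be told apart in any of these differences.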

How the results depend on the processing

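By total-count scaling 2084 genes were higher and 9506 lower, 987 higher and 3831 lower by 2-fold or more, and 839 lower by 4-fold or more. A test against 1.5-fold (glmTreat) left 1977 higher and 2009 lower. Genes lower by 4-fold or more numbered 555 without the low-count filter, which adds low genes, and 182 with a mean of at least 1 CPM. Leaving out each MOPS library gave 4743 to 4836 higher and 4782 to 4845 lower genes. Of 264 genes with a value or direction in the text, 259 were called and 17 changed sign by totals: Actb -0.17, Atp5b -0.070, B2m -0.13, Cox6c -0.027, Csf1r -0.14, Gata6 -0.12, H2-D1 -0.21, Ndufa4 -0.052, Rpl19 -0.073, Rpl23 -0.13, Rps24 -0.15, Rps25 -0.046, Tapbp -0.0021, mt-Cytb -0.19, mt-Nd1 -0.15, mt-Nd2 -0.17 and mt-Nd4 -0.18. The value of Top2a, not called, ran from -0.24 to 0.067 without single libraries. Totals also ended the calls of Cox5b, Cs, Srebf2, Tent5c and Pdgfra. The median of 15 of 39 lists changed sign by totals. A test against 1.5-fold ended the call of 42 of these genes. Arg1, Ifit3, Irf7, Bcl6 and Top2a, not called, were called under some settings. So were Atf3, H2-Aa, H2-Eb1 and Cd74, which are named above without a value and are not among the 264. The other settings (RLE, DESeq2, MOPS libraries alone, filters, single libraries left out) ended calls only for Pdgfra and Tnfsf8, and for the differences between media given above. No paired analysis was possible because the groups share no replicate number. The counts of reads limit genes under about 1 CPM, where 1 library can decide a call.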
